A study of Mus musculus with 384 samples.

Results

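Ren1, the gene of the mouse protease renin, is 1 of 40594 genes counted in 384 single-cell libraries from mouse kidney, and it was selected on its own read counts, because a few wells were already known to hold very large numbers of its reads. Kidneys of mice aged 8 weeks were perfused and dissociated, and cells bearing the surface receptor PDGFRB, a mark of pericytes and fibroblasts, were sorted singly into plates. The CD45+ gate took cells that also carried CD45, the leukocyte surface phosphatase, and the CD45- gate took cells without it. Each gate filled 1 plate of 96 wells in each of 2 batches, so there were 4 plates. The letters UUO in the well names are not spelled out by the labels, which name no strain, sex or animal. Each plate was therefore treated as 1 sample, no difference between plates or wells could be tested, and cells of a plate are not replicates.

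Renin is an aspartic protease that cuts angiotensinogen to angiotensin I, the first and rate-limiting step of the renin-angiotensin system, which raises blood pressure and retains salt. In the adult kidney it is made and stored in granules by juxtaglomerular cells in the wall of the afferent arteriole, which arise from the same stromal lineage as vascular smooth muscle cells and pericytes. Cyclic AMP, prostaglandins and beta-adrenergic input raise its release, while angiotensin II, stretch and calcium lower it. Smooth muscle cells and pericytes can begin to make renin when blood pressure or salt is threatened.

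Ren1 has the Ensembl identifier ENSMUSG00000070645 and lies on the plus strand at chr1:133350510-133360325 in GENCODE M21 on GRCm38, with 9 exons and 0 other annotated genes over it. In both deposited tables the identifier stood on 2 lines with identical counts, one paired with the Entrez number of Ren1 and one with that of Ren2, a near-identical paralog that some mouse strains carry beside it. One line was kept, and reads of Ren1 and Ren2 cannot be told apart in these counts. A pair of short elements close to the start site, taken from RefSeq on GRCm38.p6, show the kind of control sequence that renin is known for. Capitals mark the motif that was searched for on both strands, TAAATCA for the core of a homeodomain site and TATAAAA for a TATA box.
Ren1 homeodomain element, chr1:133350602-133350629, plus strand: cctggggtaaTAAATCAaagcagagcct
Ren1 TATA element, chr1:133350635-133350662, plus strand: acatggtgtgTATAAAAgaaggctcagg
The homeodomain motif began 62 bases before the RefSeq start and was present in 975 of 32851 mouse promoter windows of 300 bases, or 2.97%. The TATA motif began 29 bases before that start and was present in 1801 of the windows, or 5.48%. Each occurred 1 time in the Ren1 window. Both motifs lie inside the longer first exon that GENCODE draws, and no measurement here bears on what binds them.

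Wells with at least 10000 counted reads spread over 500 or more genes were kept. This kept 92 CD45+ wells and 93 CD45- wells of batch 1, and 90 CD45+ wells and 93 CD45- wells of batch 2, with median depths of 225559 to 288818 reads. Levels are given as CPM, the reads of a gene per 1000000 gene reads of its well or of the summed plate, and intervals are exact 95% intervals that cover counting error only. The gate marker of leukocytes followed the labels on average. Over the wells that were not rich in Ren1, the transcript of the CD45 gene Ptprc averaged 516 and 563 CPM in CD45+ wells of batches 1 and 2, against 0.122 and 2.02 CPM in CD45- wells. Pdgfrb averaged 0.111 and 4.36 CPM in CD45+ wells and 326 and 241 CPM in CD45- wells, so the receptor used in both gates was near 0 as a transcript in CD45+ wells.

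Ren1 was among the most abundant messages of 1 plate, mostly through 1 well, and was sparse on the other 3. In batch 1 its level was 115 CPM (111 to 119) over the CD45+ plate and 412 CPM (404 to 419) over the CD45- plate. In batch 2 it was 28.7 CPM (26.8 to 30.8) over the CD45+ plate and 15007 CPM (14965 to 15050) over the CD45- plate. By reads, without correction for length, Ren1 stood at place 1144 and place 390 of 40594 genes on the CD45+ and CD45- plates of batch 1. On the CD45+ and CD45- plates of batch 2 it stood at place 3958 and place 3. Its level on the CD45- plate was 36.4 times higher in batch 2 than in batch 1, while on the CD45+ plate the ratio of batch 2 to batch 1 was 0.251. Over the wells that were not rich in Ren1 the CD45- ratio was 21.6, and the CD45+ ratio turned round to 2.27. Whether the batches differed in animals or handling is not stated by the labels, so batch cannot be told apart from either.

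Each of these plate levels changed by more than 1.5 times when 1 well was left out. Without well H10 the CD45+ plate of batch 1 had 10.9 CPM, and without well D8 the CD45- plate of batch 1 had 46.3 CPM. Without well H9 the CD45+ plate of batch 2 had 16.3 CPM, and without well B1 the CD45- plate of batch 2 had 2246 CPM. Without these wells Ren1 stood at place 5891 and place 3092 on the CD45+ and CD45- plates of batch 1, and at place 5525 and place 37 on those of batch 2. Wells are named by plate row and column.

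On the log2 scale of CPM plus 1, CD45+ over CD45-, Ren1 was at -1.84 in batch 1 and at -8.98 in batch 2. A gene was called lower in CD45+ cells when both batches passed a 4-fold difference, which 12.9% of 12882 genes did, while 4.33% were called higher. Ren1 passed 4-fold lower in batch 2, as 31.9% of genes did, but fell short of it in batch 1, so it was not called. That batch 1 value had no stable sign. Without the CD45+ well H10 it was -5.12, and without the CD45- well D8 it was 1.29. In batch 2 the ratio kept its sign whichever single well was left out, between -9.76 without the CD45+ well H9 and -6.24 without the CD45- well B1. With all Ren1-rich wells left out, the ratio was -1.45 in batch 1 and -4.73 in batch 2.

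**Figure D1:**
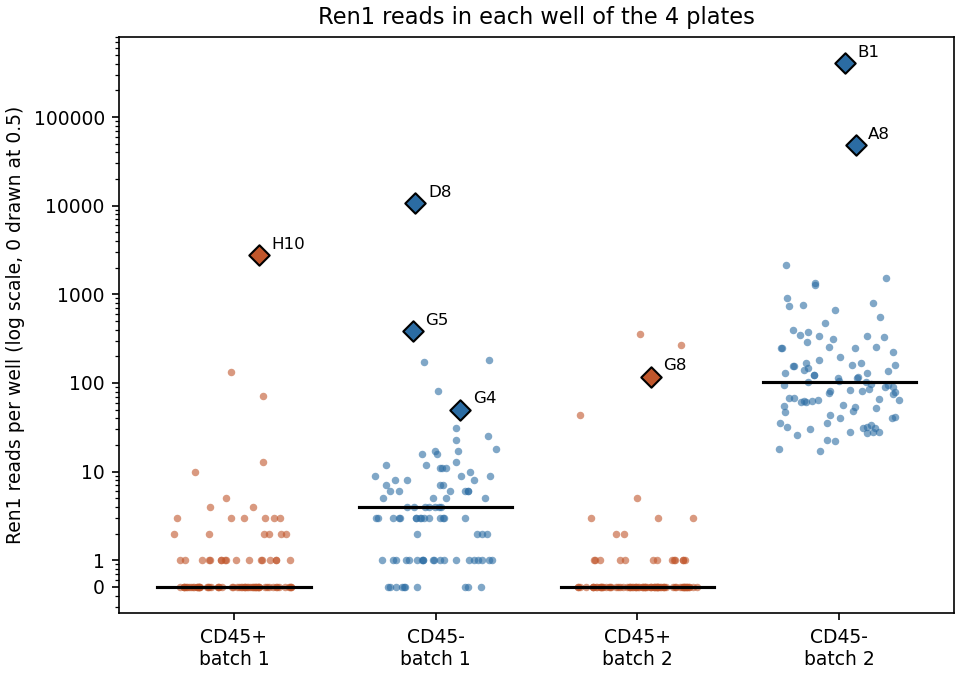
Ren1 reads in each of the 96 wells of each plate (vertical axis, log scale, with 0 drawn at 0.5), CD45+ left of CD45- within each batch; diamonds with a plate position are the 7 Ren1-high wells and black lines are medians of kept wells. Every CD45- well of batch 2 lay above 0, and the diamonds at 407693, 48208, 10745 and 2751 reads were the 4 highest of all 384 wells.

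The typical well also differed between plates. In batch 1 the median kept well had 0 CPM of Ren1 in the CD45+ gate, with quartiles of 0 and 4.49 CPM and a highest well of 9088 CPM. The CD45- wells of batch 1 had a median of 15.8 CPM, quartiles of 5.15 and 51.98 CPM and a highest well of 26421 CPM. In batch 2 the CD45+ wells had a median and both quartiles of 0 CPM and a highest well of 1153 CPM. The CD45- wells of batch 2 had a median of 453 CPM, quartiles of 205 and 1278 CPM, a lowest well of 60.1 CPM and a highest well of 377426 CPM. The lowest CD45- well of batch 2 was thus above the upper quartile of each of the other 3 plates.

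At least 1 Ren1 read was present in 35 of 92 CD45+ wells (38.04%) and 85 of 93 CD45- wells (91.4%) of batch 1, and in 22 of 90 CD45+ wells (24.4%) and 93 of 93 CD45- wells (100%) of batch 2. After each well was thinned at random to 50000 reads and shallower wells were left out, 11 of 76 CD45+ wells of batch 1 still had a read (14.5%, 7.45 to 24.4), against 38 of 79 CD45- wells (48.1%, 36.7 to 59.6). In batch 2 the thinned count was 7 of 78 CD45+ wells (8.97%, 3.68 to 17.6), against 82 of 82 CD45- wells (100%, 95.6 to 100). A level of 100 CPM or more was far less common on 3 of the plates. Among wells of at least 50000 reads it was reached by 4 of 76 CD45+ wells (5.26%) and 7 of 79 CD45- wells (8.86%) in batch 1, and by 4 of 78 CD45+ wells (5.13%) and 75 of 82 CD45- wells (91.5%) in batch 2. CD45+ wells held mostly leukocyte transcripts, but their counts include well H10 of batch 1, with 2751 Ren1 reads, which also carried some pericyte markers. How much of the Ren1 in CD45+ wells is background, and whether the background was alike on the CD45- plates, was not tested.

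On the CD45- plate of batch 2, outside the wells rich in Ren1, the number of its reads in a well hardly followed how deeply the well was sequenced. The 91 other kept wells of that plate held 18 to 2141 Ren1 reads with a median of 103. The wells of under 50000 reads on that plate, the 3 left-out wells included, had a median of 97 Ren1 reads, and the deeper wells a median of 99. Expressed as CPM these medians were 7391 for the shallow wells and 376 for the deep ones, so the high median CPM of the shallow wells came from an ordinary number of reads. The kept shallow wells with the highest CPM held more than the median, with 352 Ren1 reads in G9, 739 in H4, 248 in D2 and 146 in E7. On the CD45- plate of batch 1 the medians were 1 read in the wells of under 50000 reads, left-out wells included, and 4 reads in the deeper ones. Pearson's r between the logarithms of Ren1 reads and of depth was 0.219 over the other wells of the CD45- plate of batch 2, 0.276 over the CD45- wells of batch 1, and 0.0166 and 0.131 over the CD45+ wells of batches 1 and 2, all as descriptions of wells that share a plate. The 3 wells left out of the CD45- plate of batch 2 for low depth held 61, 17 and 98 Ren1 reads. The other wells of the remaining plates held few Ren1 reads, with medians of 0 in the CD45+ wells of both batches and 3 in the CD45- wells of batch 1, and 57, 68 and 8 of them had none.

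**Figure D2:**
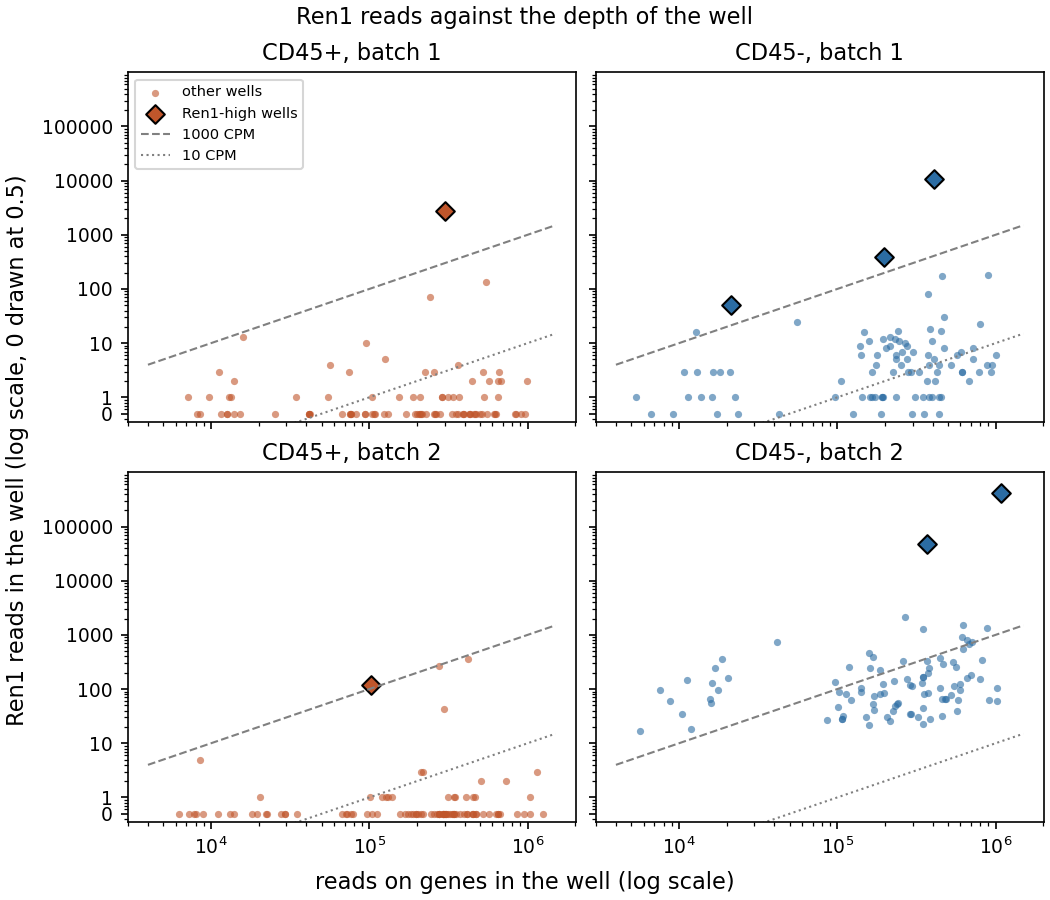
Ren1 reads (vertical axis, log scale, 0 drawn at 0.5) against all reads on genes (horizontal axis, log scale) for the 96 wells of each plate, with CD45+ plates on the left, Ren1-high wells as diamonds, and lines of equal CPM. On the CD45- plate of batch 2 the other wells form a level band around their median of 103 reads, where wells of a constant CPM would follow the sloping lines.

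On that plate Ren1 was present in wells that held markers of different cell types. Only wells of at least 50000 reads that were not rich in Ren1 were taken. The median was 443 CPM in 66 wells with at least 3 fibroblast markers at 100 CPM, and 241 CPM in 14 wells without. It was 468 CPM in 30 wells with smooth muscle markers and 302 CPM in 50 wells without, and 509 CPM in 24 wells with endothelial markers and 279 CPM in 56 without. For pericyte markers it was 356 CPM in 6 wells with them and 376 CPM in 74 wells without. In Ren1 reads the medians with and without markers were 103 and 64.5 for fibroblast and 161.5 and 81 for smooth muscle markers. They were 124.5 and 99 reads for pericyte markers. For endothelial markers they were 101 and 99 reads, at median depths of 232560 and 371070 reads, so that CPM gap went with depth. Wells with smooth muscle markers were deeper, at a median of 377070 reads against 251940 without. Red blood cell genes split the wells in a like way. The medians were 426 CPM and 108 Ren1 reads in 54 wells with them, and 232 CPM and 86 reads in 26 wells without. In the CD45- wells of batch 1 the median was 13.3 CPM in 14 wells with pericyte markers and 10.7 CPM in 63 without, and no class of at least 10 wells exceeded that. Reads carried between wells or free renin message in the sorted drops were not tested as sources of this level.

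The upper tail was formed by 7 wells. A Ren1-high well was a kept well with at least 1000 CPM of Ren1 and at least 100 times the plate median, a median below 1 CPM being set to 1. The Ren1 values of these 7 wells are a description, since they chose the wells. Well B1 of the CD45- plate of batch 2 held 407693 Ren1 reads, 37.7% of its 1080192 reads and 85.5% of all Ren1 reads of its plate, and it was the deepest well there. Well A8 of the same plate held 48208 Ren1 reads, 13.1% of its 366813 reads. In both, Ren1 took more reads than any other gene, followed by Ctsb at 23152 CPM in B1 and by Ifitm3 at 20776 CPM in A8.

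In batch 1, well D8 of the CD45- plate held 10745 Ren1 reads of 406685, or 2.64%, at place 3 among its genes and 88.9% of the Ren1 reads of the plate. Well H10 of the CD45+ plate of batch 1 held 2751 Ren1 reads of 302714, or 0.909%, which was 90.6% of the Ren1 reads of its plate. The other 3 wells held far fewer reads. Well G5 of the CD45- plate of batch 1 had 382 Ren1 reads of 196555 (1943 CPM) and its neighbour G4 had 50 of only 21357 reads (2341 CPM). Well G8 of the CD45+ plate of batch 2 had 118 of 102315 reads (1153 CPM), at place 171 among its genes. So 4 of the 7 wells carried at least 1000 Ren1 reads, and the other 3 rested on 50, 118 and 382 reads.

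The wells just short of the rule were of the same order as those 3. On the CD45+ plate of batch 2, wells B1 and H9 had 985 and 852 CPM from 271 and 360 reads, more reads than the G8 well that passed. On the CD45+ plate of batch 1, well B11 had 815 CPM from 13 reads. Well D5 of the CD45- plate of batch 1 had 1242 CPM from 16 reads, where the limit was 1577 CPM. On the CD45- plate of batch 2 the limit was 45285 CPM, and well G9 came next with 18890 CPM from 352 reads of a shallow well. By reads, the next well there was A2, with 2141 Ren1 reads and 7961 CPM.

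**Figure D3:**
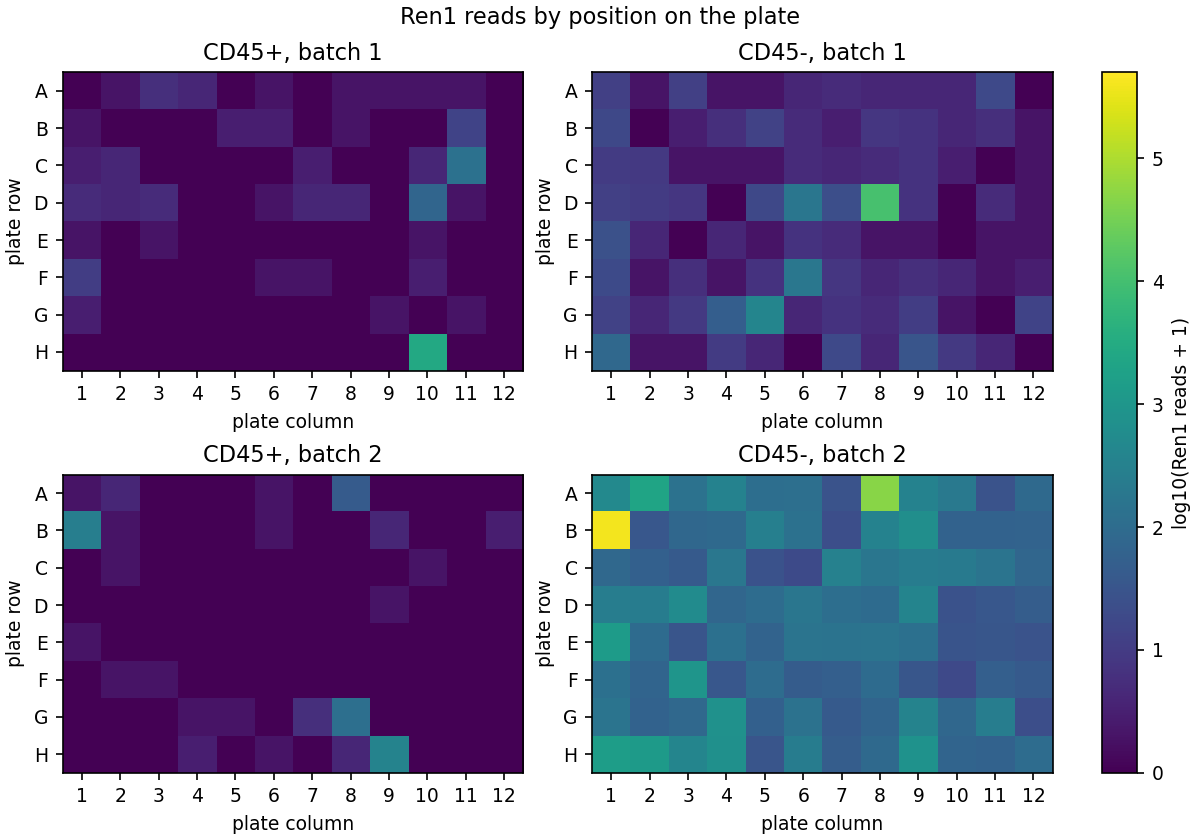
Ren1 reads, as log10 of reads plus 1 (colour), at each plate row and column, with CD45+ plates on the left and CD45- plates on the right. The CD45- plate of batch 2 is coloured throughout with B1 and A8 brightest, and positions B1 and A8 also stand out on the CD45+ plate of batch 2 with 271 and 43 reads.

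Some positions were high on more than 1 plate. All 96 positions were shared by the 4 plates, whose wells were told apart by a well barcode and a plate index. Position B1, with 407693 Ren1 reads on the CD45- plate of batch 2, had 271 reads on the CD45+ plate of that batch, which is 0.0665% of the larger number and at place 2 on a plate with a median of 0. Position A8, with 48208 reads on the CD45- plate, had 43 reads on the CD45+ plate, which is 0.0892%, and was at place 4 there. Other genes of these wells showed shares of like size. Akr1b7 had 10971 reads in B1 of the CD45- plate and 8 at B1 of the CD45+ plate (0.0729%), and Ppy, which encodes pancreatic polypeptide, had 5096 reads in A8 and 3 at the same position of the CD45+ plate (0.0589%). Position H9 had no such small share. It had 360 Ren1 reads on the CD45+ plate of batch 2, at place 1, and 794 on the CD45- plate of that batch, at place 8. On the CD45- plate of batch 1 it had 31 reads, at place 7. For well H10 of the CD45+ plate of batch 1 the CD45- plate had 8 reads at that position against a plate median of 3, and for D8 of the CD45- plate of batch 1 the CD45+ plate had 3 reads. The part of index exchange between plates in the CD45+ values of batch 2 was not tested.

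Plate columns also differed. Among the other wells of the CD45- plate of batch 2, the medians were 255 Ren1 reads in column 1 and 343.5 in column 9, and 50 to 154 in the other columns. The CD45- plate of batch 1 had medians of 14 reads in column 1 and 6 in column 9, and of 1 to 5 in the other columns. Columns 1 and 9 thus led on both CD45- plates. Row B, which holds the B1 well, had a median of 81 reads on the CD45- plate of batch 2, where the other rows lay between 52.5 and 176.

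The Ren1-high wells were then compared with the other kept wells of their own plates, as log2 of the CPM plus 10 of the well over the mean of the others, for 12821 genes. A gene was called when it passed 4-fold in at least 5 of the 7 wells. Ren1 and Cox7a1, the muscle form of a subunit of cytochrome c oxidase, were the 2 genes called higher (0.0156%), and 1423 genes were called lower (11.1%). In single wells the share of genes that passed 4-fold higher was 2.70% in B1, 3.37% in A8, 3.83% in D8, 3.07% in H10, 2.88% in G4, 3.17% in G5 and 1.38% in G8. The share that passed 4-fold lower was 25.7% in B1 and 29.5% in A8. The median log2 ratio over all genes was -0.84. Ren1 itself chose the wells, so its call is no result, and no test was possible for the others.

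Cox7a1 had 1491 CPM in A8, 959 in D8, 1853 in H10, 93.6 in G4 and 804 in G5, but 5.55 CPM in B1 and 0 in G8. In the shallow well G4 that CPM is what 2 reads give, and without G4 the gene would not have reached 5 wells. The other wells averaged 33.5 and 0.102 CPM on the CD45+ plates of batches 1 and 2 and 10.7 and 71.7 CPM on the CD45- plates. Cox7a1 was thus above 100 CPM in 4 of the 7 wells and near 0 in the one with the most renin message.

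The largest median log2 ratios after Ren1 (6.28) and Cox7a1 (4.20), among genes at 100 CPM or more in at least 4 of the 7 wells, belonged to Pcp4l1 (3.67), a small protein related to a calmodulin regulator, the endothelin receptor Ednrb (2.79), the growth factor Pdgfa (2.05) and Sncg (1.88), gamma-synuclein. Pcp4l1 had 3049 CPM in B1, 2767 in A8, 1586 in D8 and 337 in H10, and 281, 351 and 0 CPM in G4, G5 and G8. In the other wells it averaged 13.6 and 44.7 CPM on the CD45+ plates of batches 1 and 2 and 108 and 208 CPM on the CD45- plates. It passed 4-fold in the 4 wells with the most Ren1 reads and in none of the other 3. Ednrb had 656 CPM in B1, 7246 in A8, 1488 in D8, 258 in H10 and 2946 in G5, and 46.8 and 19.5 CPM in G4 and G8. The remaining places, with medians of 1.16 to 1.65, were taken by the mitochondrial genes Ndufaf3 and Ndufa4l2, the proteasome subunits Psmb6 and Psmb5, the small GTPase Arl2, the cargo receptor Tmed3, the nucleotide enzymes Nme1 and Nt5c, and Cald1, which encodes the actin-binding protein caldesmon.

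With only the 4 wells of at least 1000 Ren1 reads, 10 of 12656 genes (0.0790%) were called higher in at least 3 wells and 2202 (17.4%) lower. Beside Ren1, Cox7a1, Pcp4l1, Pdgfa and Ednrb these were Notch3 (median log2 of 4.51), a receptor of vascular mural cells, the muscle filament gene Des (2.75), the lipid enzyme Elovl1, the tubulin Tuba1c and the stress-induced Ddit4, all named after their values were seen. Notch3 had 804 CPM in A8, 996 in D8 and 918 in H10 but 0 in B1. Wells that shared a high renin level thus differed in this mural gene.

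Akr1b7, an aldo-keto reductase known in mice as a marker of renin cells, was high in the 2 wells with the most Ren1 and in neither of the next 2. It had 10157 CPM in B1 and 10433 CPM in A8, and 0 reads in D8 and H10. In G4 it had 93.6 CPM from 2 reads, and it was at 0 in G5 and G8. The other wells averaged 8.17 and 4.60 CPM on the CD45+ plates of batches 1 and 2, and 54.6 and 128 CPM on the CD45- plates. Well A2 of the CD45- plate of batch 2 came next, with 5429 CPM of Akr1b7 from 1460 reads beside 2141 Ren1 reads.

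In batch 1 the wells with the most Akr1b7 reads held few Ren1 reads. Well F5 of the CD45- plate held 919 Akr1b7 reads and 6 Ren1 reads, well B9 230 and 6, and well F9 160 and 5. Wells F6 and D6 held 190 and 131 Akr1b7 reads beside 182 and 172 Ren1 reads, which were the highest numbers of Ren1 reads on that plate after D8 and G5. At least 100 CPM of Akr1b7 was present in 1 CD45+ well and 5 CD45- wells of batch 1, none of them Ren1-high, and in 1 CD45+ well and 13 CD45- wells of batch 2, of which 2 were Ren1-high. Over the CD45- wells, Pearson's r between Akr1b7 and Ren1 was 0.188 in batch 1 and 0.774 in batch 2, and 0.207 and 0.704 without the Ren1-high wells. Both levels are divided by the reads of the same well, so the points share depth, and over the wells of at least 50000 reads r was 0.200 and 0.763.

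In batch 2 Akr1b7 reads were also present in wells with only the plate-wide level of Ren1. In B1 there were 2.69 Akr1b7 reads per 100 Ren1 reads, in A8 7.94 and in A2 68.2. The median over the 91 other wells of the CD45- plate of batch 2 was 2.44 per 100, with quartiles of 1.46 and 4.26, and 77 of them had an Akr1b7 read. Pooled over these wells the ratio was 11.9 per 100, and 5.42 without A2. The other wells of under 50000 reads held 80 Akr1b7 reads and 2047 Ren1 reads together, or 3.91 per 100. The median well was thus near the ratio of B1, while the pooled ratios were higher. On the CD45- plate of batch 1 the median over wells with a Ren1 read was 0.

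**Figure D4:**
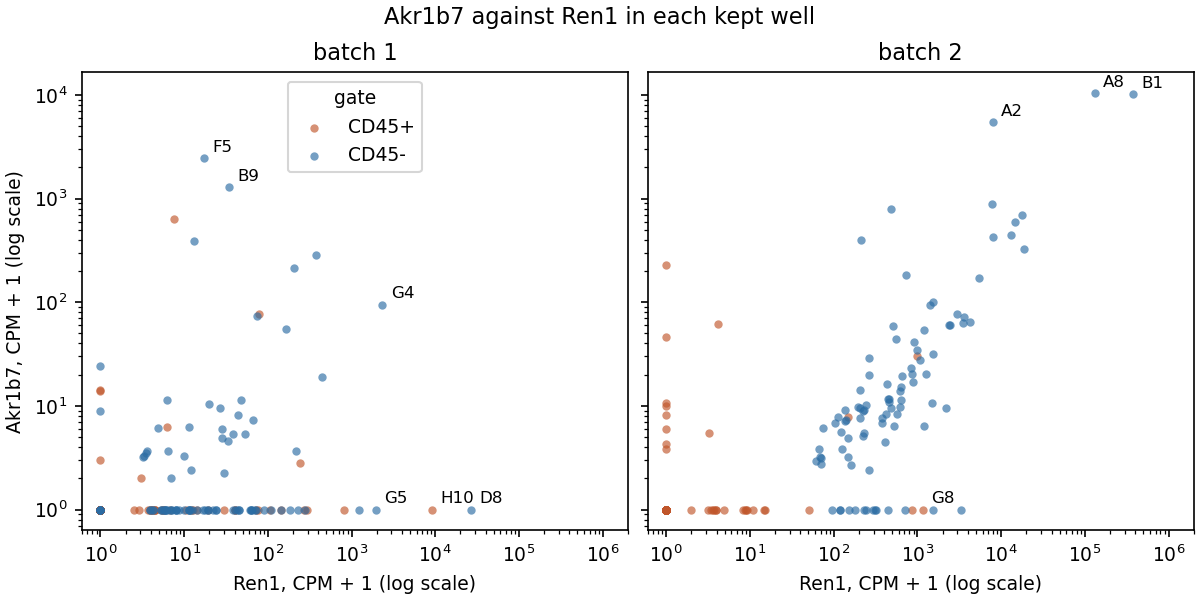
Akr1b7 against Ren1, both as CPM plus 1 on log axes, in each kept well of batch 1 (left) and batch 2 (right), coloured by gate, with plate positions given for Ren1-high wells and wells above 1000 CPM of Akr1b7. In batch 2 the CD45- wells rise along 1 band that ends in A8 and B1, and in batch 1 the wells with most Ren1, D8 and H10, lie at 0 reads of Akr1b7.

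Receptors and gap junction proteins of juxtaglomerular cells were mostly undetected in the Ren1-high wells, and they were low in most other wells too. Over the other CD45- wells the list summed to medians of 29.3 and 15.8 CPM in batches 1 and 2. Over the other CD45+ wells these sums were 4.73 and 2.37 CPM. Of 10 genes in this list none was called higher or lower. A filter on low values (an average of at least 1 CPM over the kept wells of the plates compared) was passed by 8. The median log2 ratio of the list was -0.86, beside -0.84 over all genes. The connexin gene Gja4 had 1291 CPM in D8, 936 in G4 and 778 in G5, against an average of 134 CPM in the other CD45- wells of batch 1, so all 3 Ren1-high wells of that plate passed 4-fold. In the batch 2 wells B1 and A8 it had 5.55 and 24.5 CPM, against an average of 232 CPM in the other CD45- wells. The connexin gene Gjc1 reached 1776 CPM in G5 and the natriuretic peptide receptor gene Npr1 548 CPM in H10. The beta-adrenergic receptor gene Adrb1, the prostacyclin receptor gene Ptgir, the adenosine receptor gene Adora1, the calcium sensor gene Casr and the connexin gene Gja5 had 0 reads in all 7 wells. Each of them averaged at most 21.7 CPM over the other wells of any plate.

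Signalling and transcription genes of renin cells showed a scatter of single wells. None of 17 was called higher and 2 were called lower, beside 11.1% of all genes called lower, with a median of -0.62. With the pseudocount of 10 a gene of low average in the other wells cannot pass 4-fold lower, even at 0 reads. Adcy6, with an average of 15.1 CPM in the other wells, was at -1.33 in B1 with 0 reads. The share called lower thus depends on the level of the genes, in each list or marker set. Those 2, Prkar1a, the regulatory subunit of protein kinase A, and Creb1, a transcription factor that answers to cyclic AMP, were each low in 5 wells, yet Prkar1a had 1300 CPM in A8 and Creb1 1919 CPM in H10. The acetyltransferase gene Ep300 reached 605 CPM in D8, the sterol receptor gene Nr1h3 666 CPM in G5, and the phosphodiesterase genes Pde3a 248 CPM in B1 and Pde4d 140 CPM in G4, the last from 3 reads. Apart from Akr1b7 no gene of this list passed 4-fold higher in more than 1 well.

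Other parts of the renin-angiotensin system were close to absent, in the Ren1-high wells and in the median other well. Over the other wells the list summed to medians of 9.60 and 8.50 CPM on the CD45+ plates of batches 1 and 2. On the CD45- plates these sums were 2.42 and 5.75 CPM. None of its 12 genes was called in either direction, only 6 passed the filter on low values, and the median was -0.004. The angiotensinogen gene Agt, the substrate of renin, had 0 reads in all 7 wells, as had the converting enzyme gene Ace. The aminopeptidase gene Enpep, whose product degrades angiotensin II, reached 382 CPM in G5 and was at 0 in the other 6 wells.

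Among 11 genes of aspartic proteases and granules, none was called higher and Lamp1, a lysosomal membrane gene, was called lower (beside 11.1% of all genes), with a median of -1.18. Ctsb, which encodes the lysosomal protease cathepsin B that can cut prorenin, had 23152 CPM in B1 and 9359 CPM in A8, against an average of 1707 CPM in the other wells of that plate. It had 401, 936 and 1933 CPM in D8, G4 and G5 beside an average of 720 CPM, and 3.30 CPM in H10 beside 844 CPM. Its level in G8 was 6998 CPM, on a CD45+ plate whose other wells averaged 4099 CPM. The aspartic protease gene Ctsd had 649 and 990 CPM in B1 and A8, near the average of 711 CPM around them. Lamp1 and Lamp2 reached 1539 and 2058 CPM in D8, beside averages of 105 and 157 CPM. Both batch 2 wells of the CD45- gate shared 27 genes past 4-fold (0.211%), among them Akr1b7, Ctsb and the transporter gene Abcb1a, the last named after its values were seen.

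**Figure D5:**
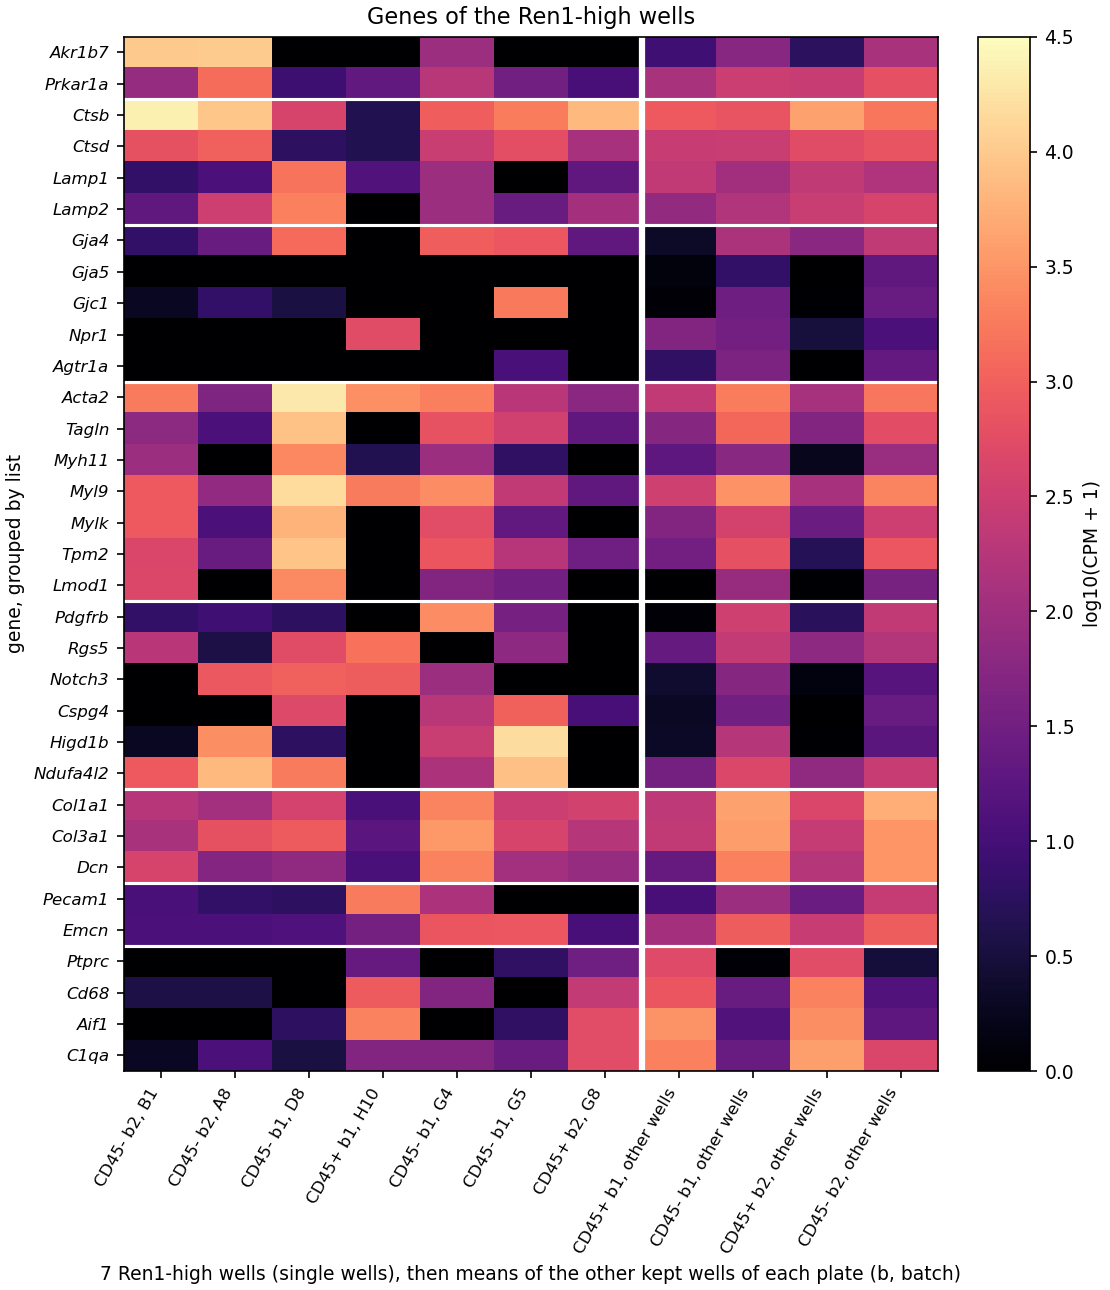
Levels of chosen list genes, as log10 of CPM plus 1 (colour), in the 7 Ren1-high wells (left, in order of Ren1 CPM) and as means of the other kept wells of each plate (right of the white line). Smooth muscle genes are bright in D8 and dark in A8, Higd1b and Ndufa4l2 are bright in A8 and G5, and Akr1b7 and Ctsb are bright in B1 and A8.

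The contractile genes of smooth muscle set the renin-rich wells apart from each other. Of 10 genes none was called higher and 1, Smtn, was called lower (beside 11.1% of all genes), with a median of -1.04. In D8, 7 of the 10 passed 4-fold higher and 2 lower, Cnn1 and Smtn with 0 reads each, and the list summed to 63491 CPM. The other CD45- wells of batch 1 had a median of 4023 CPM and a highest value of 64358.5 CPM. Acta2, smooth muscle actin, had 19607 CPM there, Myl9 15004, Tpm2 8717, Tagln 8343, Mylk 6093, Lmod1 2545, Myh11 2395 and Actg2 787 CPM. In A8 all 10 passed 4-fold lower and the sum was 166 CPM, and in B1 it was 5033 CPM with 2 genes higher, Cnn1 at 434 CPM and Lmod1 at 452 CPM, and 3 lower. The median of the other wells of that plate was 2379 CPM and the highest value 57739 CPM. The sum was 7023 CPM in G4 and 1068 CPM in G5. In H10 it was 4727 CPM, against a median of 96.1 CPM and a highest value of 13813 CPM over the other wells of its CD45+ plate. That sum in H10 was almost all Acta2 (2877 CPM) and Myl9 (1847 CPM), which passed 4-fold higher. Of the 10 genes, 7 had 0 reads in H10 and 3 passed 4-fold lower.

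Pericyte markers were likewise spread over different wells. None of 10 was called, with a median of -0.13, but 9 of them passed 4-fold higher in at least 1 well, where 17.7% of all genes did. The summed level was 26049 CPM in G5, with Higd1b at 15843 and Ndufa4l2 at 7998 CPM, and 10558.5 CPM in A8, with 2781 and 6884 CPM of these genes. In A8 the markers were split, with 4 passing 4-fold higher and 3 lower, among them Rgs5 at 2.73 CPM, and with 3 at 0 reads. The summed level was 4768 CPM in D8, 3418 in G4 and 1300 in B1. The medians of the other CD45- wells were 603 CPM in batch 1 and 185 CPM in batch 2, and their highest values 14718.5 and 7666 CPM. The defining gene Pdgfrb was low in most of them, with 5.55, 8.18 and 4.92 CPM in B1, A8 and D8, 35.6 CPM in G5, 0 in H10 and G8, and 2622 CPM from 56 reads in G4. Sorting was by the surface protein, which the counts do not show.

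Markers of other cell types were mostly low in these wells. Of 9 fibroblast markers none passed 4-fold higher in any of the 7 wells and 3 were called lower, with a median of -2.96, and of 7 endothelial markers 5 were called lower, with a median of -3.52. Of 10 tubule markers 3 were called lower (median -0.94), and none of 5 mesangial (-0.53), 2 macula densa (-0.07) or 4 red blood cell genes (-1.87) was called. These counts stand beside the 11.1% of all genes called lower. Exceptions were found in single wells. The fibroblast markers summed to 12783 CPM in G4, beside a median of 10470.1 CPM over the other wells of its plate. Well H10 had 1824 CPM of the endothelial gene Pecam1 and 720 CPM of Egfl7, and G8 had 586 CPM of the water channel gene Aqp1. The mesangial marker Fhl2 passed 4-fold higher in D8 at 1023 CPM and in G5 at 997 CPM, beside an average of 169 CPM in the other wells. The macrophage marker C1qb passed 4-fold higher in G4, at 983 CPM from 21 reads.

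The 2 Ren1-high wells of the CD45+ gate did not look alike. Of 8 leukocyte and macrophage markers 1 was called lower over all 7 wells (beside 11.1% of all genes), with a median of -1.04. In H10 they summed to 5368 CPM, against a median of 19003 CPM and a range of 567 to 53086 CPM over the other wells of its plate, with Aif1 at 2114, C1qb at 1549 and Cd68 at 889 CPM and Ptprc at 23.1 CPM from 7 reads. Its pericyte markers summed to 3591 CPM, against a median of 4.49 and a highest value of 1825 CPM in the other 91 wells, with Rgs5 at 1513, Cox4i2 at 1160 and Notch3 at 918 CPM. The other 7 of the 10 pericyte markers, Pdgfrb among them, had 0 reads in H10. H10 thus carried some mural and some leukocyte transcripts together, and whether it held more than 1 cell was not tested. In G8 the leukocyte markers summed to 7721 CPM, against a median of 28779 CPM on its plate, and its pericyte markers to 9.77 CPM.

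Genes whose level followed Ren1 over the CD45- wells were sought by the smaller of the Pearson's r values of the 2 plates, each over 93 kept wells that share a plate and its depths. The highest was Pcp4l1 with 0.384, followed by Sncg (0.375), the signalling partner gene Rgs7bp (0.360), the kallikrein gene Klk1 (0.344), the potassium channel gene Kcnk3 (0.342), the smooth muscle gene Lmod1 (0.320), Zdhhc18 (0.320), Zfp24 (0.311), 9530034E10Rik (0.298) and Numa1 (0.297). The median over 7377 genes was -0.03. These are weak values in sparse counts. Without the Ren1-high wells 3 of the 10 stayed among the first 10, Klk1 led with 0.396, and Pcp4l1 fell to 0.235. Over wells of at least 50000 reads 5 of the 10 stayed, Pcp4l1 led with 0.475, and Klk1 fell to 0.157 at place 151.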

How the data were processed

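The authors deposited raw read counts per gene and well, 1 table per batch, made from paired-end SMARTer libraries pooled by plate, per the labels' protocols. The submitters' processing notes list featureCounts 1.4.5, Subread and STAR; genome build and annotation are not given in the sources used here. No molecular identifiers are described. Repeated Ensembl lines (598 of 41192 in batch 1, 595 of 41228 in batch 2) were dropped and 40594 shared genes kept. Groups follow the labelled cell population and batch. Levels are CPM, with exact Poisson intervals; shares have Clopper-Pearson intervals. A pseudocount of 1 was used for gates and of 10 for wells. Calls are thresholds of fold, with no test. Named genes were Ren1, members of the 5 renin and smooth muscle lists that were called or at 100 CPM in a Ren1-high well, the 15 largest median ratios and the 10 highest correlations. Members, lists and rules were chosen with earlier results of these data known. Tools were Python 3.11.15, pandas 2.3.3, numpy 2.4.6 and scipy 1.17.1; the ratio and correlation steps were tested on simulated data. No doublet caller was run. Alternatives were other scalings, thresholds, pseudocounts, thinning depths and left-out wells. Values of some single list genes are not reported here.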

Additional observations from a re-analysis of the deposited data

Results flagged for a closer look

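Some wells that were left out for having under 10000 reads also held Ren1 reads. On the CD45+ plate of batch 2, well G7 held 5 Ren1 reads of 8482, beside G8, the Ren1-high well. On the CD45- plate of batch 2, well B11 held 61, well F10 held 17 and well F8 held 98. The lowest of the kept wells there held 18, so F10 lay just under them and the other 2 among them. These wells take no part in any comparison.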

How the results depend on the processing

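Using all wells, or only wells of at least 50000 reads, kept the Ren1 levels of all 4 plates within their counting intervals. Several other choices moved levels out of these narrow intervals, by small or by large amounts. Levels are given for CD45+ and CD45- of batch 1, then CD45+ and CD45- of batch 2. Median-of-ratios size factors gave 133, 358, 35.4 and 12050 CPM, and the mean of well CPM gave 124, 386, 36.4 and 7122 CPM. Without the Ren1-high wells the levels were 10.9, 31.6, 24.7 and 682 CPM, and without the well with most Ren1 reads 10.9, 46.3, 16.3 and 2246 CPM. Totals without hemoglobin and mitochondrial genes gave 122 CPM for CD45+ of batch 1, and 437 and 15593 CPM for CD45- of batches 1 and 2. Keeping repeated lines gave 399 and 14545 CPM for CD45- of batches 1 and 2. Leaving out each well in turn gave 10.9 to 119, 46.3 to 426, 16.3 to 30.1 and 2246 to 15505 CPM. The gate ratio of batch 1 then lay between -5.12 and 1.29, and that of batch 2 between -9.76 and -6.24.

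The share of wells with a Ren1 read depends on depth. Unthinned it was 38.04%, 91.4% and 24.4% for CD45+ and CD45- of batch 1 and CD45+ of batch 2. At 100000 reads it was 68.8% for CD45- of batch 1. With at least 10 reads required it was 5.43% for CD45+ and 22.6% for CD45- of batch 1. The looser limits of 100 CPM and 10 times the median gave 33 Ren1-high wells in place of 7, while 10000 CPM gave 7, of which 3 were shared, and a limit of 1000 reads gave 8, of which 4 were shared. Genes called higher numbered 1 with a pseudocount of 100, 2 to 5 when each Ren1-high well was left out, and 10 with only the wells of at least 1000 Ren1 reads. Genes called lower numbered 5805 with a pseudocount of 1, 19 with 100, 2182 against the other CD45- wells of the batch, 1701 to 2171 when each well was left out, and 2202 with the wells of at least 1000 reads. The median r of the 10 genes most like Ren1 was 0.331, and 0.220 without the Ren1-high wells. A gene call needs at least 2 of every 3 wells compared, so fewer wells are needed once 1 is left out. How much of the leave-out change in called genes came from that, and the cause of the other shifts, was not tested. Under the other alternatives 56 values kept their direction and side of 4-fold, stayed within their interval, or were counts within 1.5 times. Among them the batch 2 gate ratio became -4.73 without the Ren1-high wells, still lower in CD45+. In all, 6 of the alternatives, on wells chosen by reads or depth and on the wells compared with, were added after seeing the data.

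No paired analysis was possible because the numbers of wells only name them and no result comes from a test. With 1 plate per gate and batch there is no error between animals, counts without molecular identifiers are not molecules, and a fold against a mean of other wells depends on the pseudocount.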
